A study of Homo sapiens with 12 samples.

Results

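The human melanoma line A375, which carries mutated BRAF, was compared after 24 h with MAPK inhibitors (MAPKi) or with the solvent DMSO alone. The members are the 6 libraries of this experiment, of 12 libraries in the series, and they were chosen by their labels: MAPKi replicates 1 to 3 received vemurafenib against BRAF and cobimetinib against MEK, each at 500 nM, and DMSO replicates 1 to 3 received neither drug. Cells of all 6 libraries grew in DMEM with serum and 2 mM glutamine, and all libraries carry the label of the same sequencing batch. A375 is a single line, so the values speak for its response and not for melanomas in general. The labels do not say that replicates were separate cultures, so the p-values measure the spread between these libraries, which may be technical. RNA was depleted of ribosomal RNA and sequenced, and reads were counted on the exons of each gene.

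In cells with an activated BRAF kinase, BRAF phosphorylates MEK, MEK phosphorylates ERK, and ERK acts on transcription factors such as the ETS and AP-1 families. The pathway limits itself, because ERK induces phosphatases (DUSP), Sprouty (SPRY) and SPRED proteins that dampen it. In melanocytes and melanoma the pathway drives entry into the cell cycle and restrains the pigment cell programme set by MITF, the lineage factor of these cells.

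Between 31056296 and 39123093 reads were counted per library. Replicates of a group differed beyond sampling noise. MAPKi replicate 1 stood farthest from the others of its group, at 12.9 and 15.2 times the noise variance, against 3.44 times between MAPKi replicates 2 and 3. Values below are counts normalized for library size by edgeR's TMM method unless a level per length is named, and they are relative to the rest of the mRNA in the same library, so a smaller share of cells expressing a gene and less of its RNA per cell cannot be told apart. "Rose" and "fell" mean a call, for which the change had to exceed 1.5-fold by edgeR's quasi-likelihood test at an adjusted p of 0.05 or less (Benjamini-Hochberg, 12595 mRNAs). Adjusted p-values printed for single genes come from the same fit, tested against no change.

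The cells expressed the lineage factors SOX10 and MITF in both groups, but some melanocyte markers were low with DMSO. MLANA had from 22 to 37 reads and TYR from 29 to 37 per DMSO library. SOX10, the lineage factor of neural crest derived glia and melanocytes, had length-scaled levels (counts per exon length, scaled to a total of 1000000 over all mRNAs) of 456, 464 and 477 with DMSO and 711, 772 and 752 with MAPKi, and MITF had levels from 206 to 213 and from 385 to 402. Of 11 melanocyte lineage markers 9 were tested, of which 7 rose and 1, S100B, fell; PRAME and MIA had at most 10 reads per library. Of the genes that define other cell types, several were at or near 0: CD3E, KRT5 and KRT1 had no read, and PECAM1, CDH5 and EPCAM at most 3 reads per library. LYZ (at most 51 reads), COL1A1 (27 to 70), PDGFRA (128 to 228), VWF (150 to 319) and LUM (333 to 724) were counted in every library, and VWF rose by 0.86 on the log2 scale. Their part in the results was not tested.

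The response reached much of the transcriptome: 18.8% of the mRNAs tested fell and 16.7% rose. Counts of list members given below are to be read beside these shares. In 80.7% of the mRNAs tested the groups did not overlap at all, so lack of overlap alone sets few genes apart. Changes were large in both directions, with 472 mRNAs lower and 400 higher by at least 4-fold, and 142 lower and 145 higher by at least 8-fold. The median log2 fold change over all mRNAs was -0.01. The plot of change against level shows that strong changes occurred at every level of expression.

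**Figure D1:**
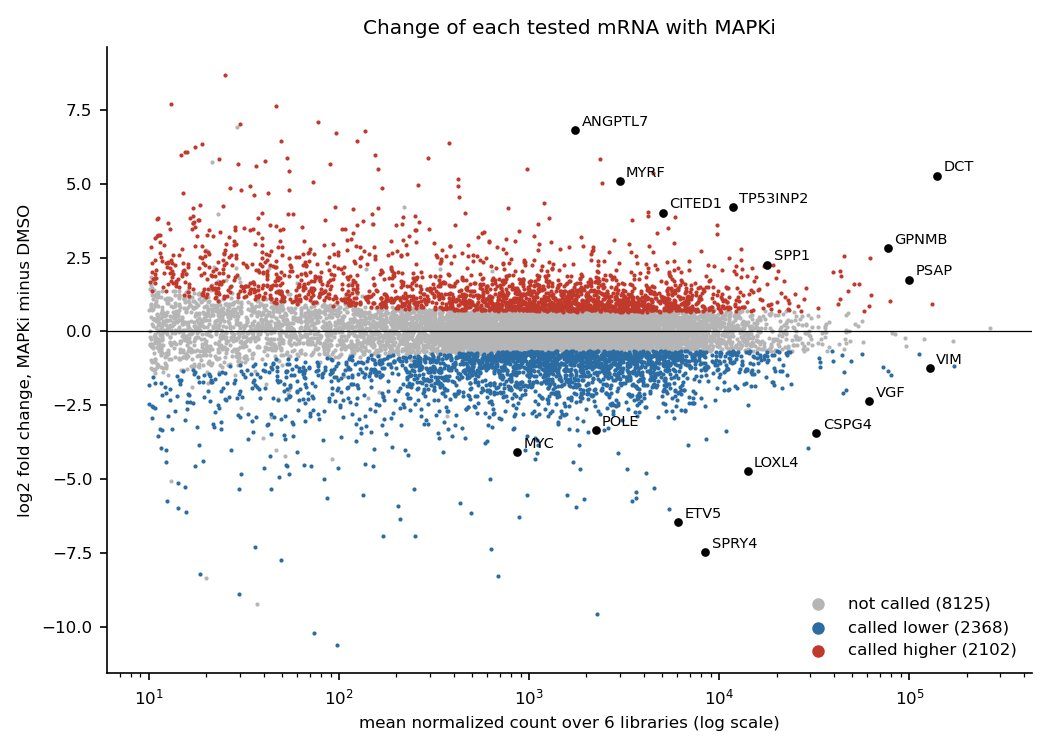
Log2 fold change of each of 12595 tested mRNAs (vertical axis, MAPKi minus DMSO) against its mean normalized count over 6 libraries (horizontal axis, log scale). Each point is an mRNA, blue for the 2368 called lower, red for the 2102 called higher and grey for the others; black points with names are examples, from SPRY4 at -7.48 to ANGPTL7 at 6.81.

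Among the most changed mRNAs were many that belong to no pathway of the MAPK cascade. A4GALT, the Gb3 synthase, was counted 493, 529 and 476 times with DMSO and 6.96, 3.33 and 1.77 times with MAPKi. MGLL, the lipase that degrades monoacylglycerols, fell from 3322, 3949 and 3110 to 49.7, 63.2 and 55.7, and the neuropeptide precursor VGF from 109258, 95017 and 104789 to 20630, 19798 and 19404. In each of the 3 genes the lowest DMSO library lay several fold above the highest MAPKi library. CYB5R2, a cytochrome b5 reductase, and the phosphatase-like CTDSPL fell by 6.27 and 6.16 on the log2 scale, and SYTL5, a synaptotagmin-like effector of RAB27, by 5.73.

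Among the largest rises were genes of varied function. The myelin transcription factor MYRF went from 186, 164 and 162 normalized counts to 6430, 5712 and 5249, a log2 fold change of 5.09 (SE 0.10, adjusted p = 3.5e-10 by edgeR's quasi-likelihood test). The vitamin B12 binding protein TCN1 rose from 231, 178 and 228 to 9579, 8338 and 8164, and the serotonin receptor HTR2B from 49.6, 39.0 and 38.7 to 1930, 1885 and 1859. The drug transporter ABCB5 was counted at most 12.9 times with DMSO and 821, 683 and 747 times with MAPKi. AGT, the angiotensin precursor, PRUNE2 and ST8SIA6, a sialyltransferase, had log2 fold changes of 4.94, 5.83 and 5.87. HTR2B lies within the span of PSMD1, whose mRNA fell by 0.95.

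Feedback inhibitors of the pathway were among the genes that fell most. Of 21 such genes 20 were tested, 12 fell (60.0%, against 18.8% of all mRNAs) and 1 rose, with a median log2 fold change of -1.27. SPRY2, a Sprouty inhibitor of Ras signalling, was counted 3788, 3693 and 3899 times with DMSO and 77.5, 74.3 and 71.6 times with MAPKi. DUSP4, a nuclear ERK phosphatase, fell from 15642, 16471 and 15074 to 1183, 1254 and 1310 (log2 fold change -3.65, SE 0.06, adjusted p = 1.7e-10), and SPRED1 from 6974, 6773 and 6913 to 1683, 1717 and 1687. The exception was DUSP10, a phosphatase that acts on p38 and JNK, which rose from 2198, 2458 and 1812 to 5371, 5674 and 5697. DUSP1, another early response phosphatase, had a log2 fold change of 0.08, and IL17RD, a membrane inhibitor of the pathway, -0.69 that was not called.

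Of the kinases and adaptors of the cascade itself, 25 were tested, 4 fell and 5 rose, shares near those of all mRNAs. BRAF mRNA, the target of vemurafenib, rose from 2088, 2165 and 2267 to 3287, 3478 and 3715, and MAP2K1, which encodes the MEK kinase targeted by cobimetinib, fell from 2979, 3002 and 2794 to 1627, 1653 and 1642. The Ras relative MRAS and the exchange factor SOS2 rose by 1.53 and 1.02 on the log2 scale, and the exchange factor RASGRP1 fell by 1.14.

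Of 27 transcription factors downstream of ERK that were tested, 12 fell (44.4%) and 5 rose (18.5%), against 18.8% and 16.7% of all mRNAs. The ETS factors ETV5, ETV4 and ETV1 fell together: ETV5 was counted 11725, 11587 and 12584 times with DMSO and 136, 141 and 135 times with MAPKi, an 87.1-fold difference. MYC fell from 1643, 1752 and 1512 to 91.4, 114 and 86.6 (log2 fold change -4.08, SE 0.10, adjusted p = 1.2e-09), EGR1 by 4.09 and FOSL1 by 2.47. Other AP-1 members went the opposite way. FOS rose from 786, 696 and 735 to 3619, 4097 and 3944, FOSL2 by a log2 fold change of 2.54, ATF3 by 2.34 and JUN by 2.04. The factors FOSL1 and FOSL2, close relatives in the AP-1 family, thus moved in opposite directions in every library.

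**Figure D2:**
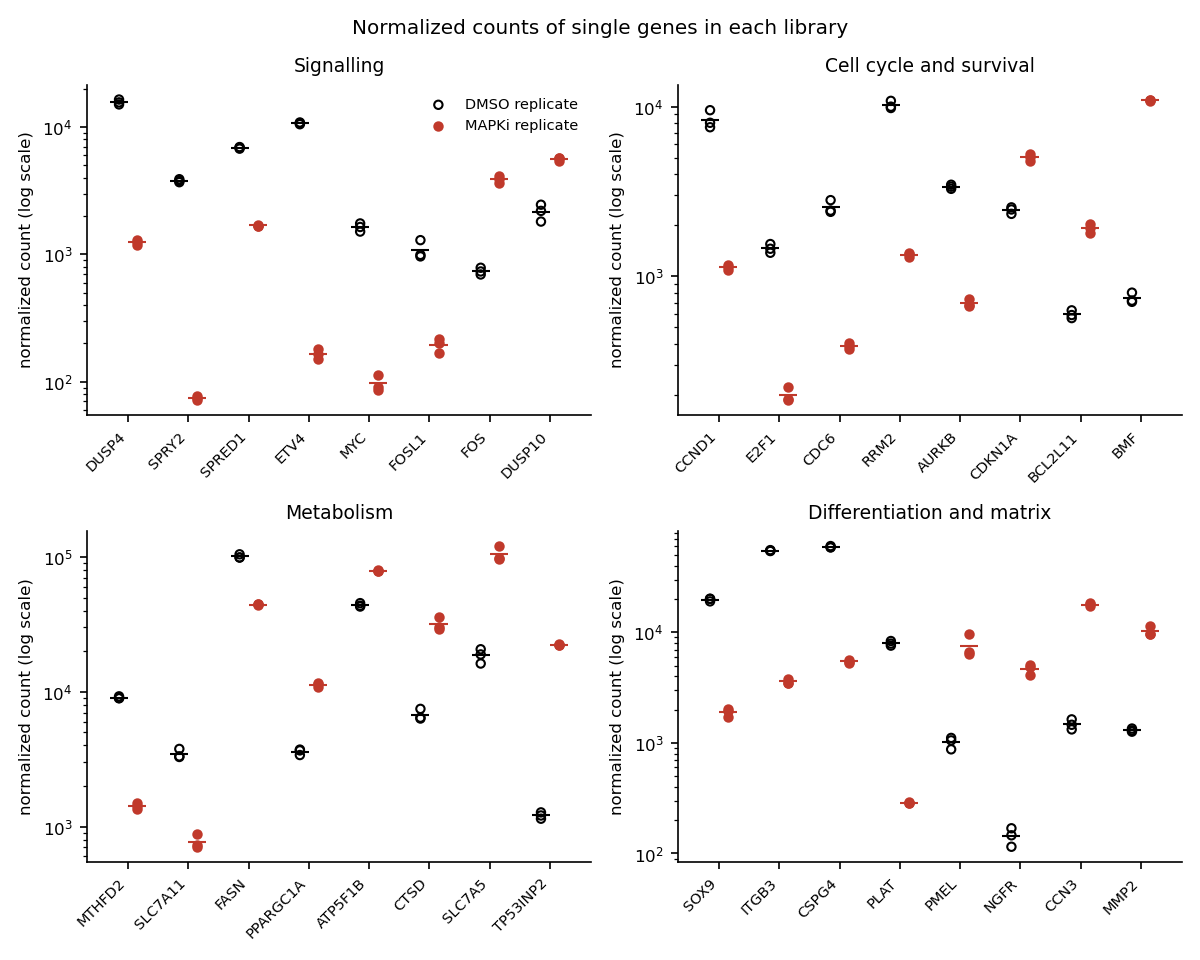
Normalized counts (vertical axes, log scale) of 8 genes in each of 4 areas, with open black circles for the 3 DMSO replicates, filled red circles for the 3 MAPKi replicates and a short line at each group mean. In every gene shown the replicates of a group lie close together and the groups do not overlap.

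Of 34 receptor tyrosine kinases tested, 8 fell (23.5%) and 6 rose (17.6%), shares near those of all mRNAs. EGFR, the epidermal growth factor receptor, fell from 251, 236 and 257 to 97.4, 96.5 and 74.2, EPHA2, an ephrin receptor, by 1.62 and FLT1, a VEGF receptor, by 2.32 on the log2 scale. ERBB3, the neuregulin receptor, rose from 18957, 16695 and 17704 to 43045, 35290 and 34785, and PDGFRB, a platelet-derived growth factor receptor, from 129, 114 and 92.9 to 407, 409 and 390. MET, the receptor of hepatocyte growth factor, rose by 0.93, while AXL had a log2 fold change of 0.33 that was not called. 

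Of 23 ligands 6 fell (26.1%) and 7 rose (30.4%), against 18.8% and 16.7% of all mRNAs. TGFA, a ligand of EGFR, fell from 5490, 6163 and 4934 to 287, 367 and 309, a 17.2-fold difference, and LIF, a cytokine of the interleukin 6 family, from 2035, 2163 and 1743 to 155, 163 and 165. FGF2 fell by 2.03 on the log2 scale. VEGFA and CSF1, growth factors of endothelial cells and macrophages, rose by 1.05 and 1.60. HBEGF, a further EGFR ligand, overlapped between groups (400 to 493 and 369 to 470).

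Genes of the insulin and PI3K axis, many of which FOXO factors induce when PI3K signalling is low, rose more often than they fell. Of 31 tested, 14 rose (45.2%, against 16.7% of all mRNAs) and 2 fell. IRS2, an adaptor of the insulin receptor, rose from 14646, 14817 and 14959 to 34336, 35696 and 35687. The PI3K subunit PIK3R3 and the PI3K inhibitor PIK3IP1 rose by 2.42 and 3.05 on the log2 scale, KLHL24 by 2.07, TXNIP by 1.26 and INSR, the insulin receptor, by 0.91. GAB2, an adaptor that recruits PI3K, and TRIB3 fell by 1.51 and 1.15.

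Genes of other developmental pathways fell more often than they rose. Of 18 Notch receptors, ligands and targets, 10 fell and 1 rose: the targets HES1 and HEY1 fell by 3.26 and 2.26, whereas the receptor NOTCH1 rose from 1815, 1692 and 1508 to 5591, 4890 and 4922. Of 21 Wnt targets and components 9 fell and 3 rose. SFRP1, a secreted Wnt antagonist, went from 9367, 8573 and 8701 to 269, 207 and 196, and the Wnt effector LEF1 fell by 2.32. AXIN2, the classical target of beta-catenin, had a log2 fold change of 0.59 that was not called. Of 22 YAP and TEAD targets 9 fell and 2 rose, and the secreted matricellular proteins CCN1 and CCN2 fell by 2.69 and 2.63.

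Inhibitors of differentiation, targets of BMP signalling, separated within their family. ID2 rose from 98.2, 77.0 and 97.7 to 808, 594 and 627 and ID1 by 0.91 on the log2 scale, while ID4 fell by 1.67. ID1 no longer passed a test against no change in a fit of all 12 libraries. Of the 23 TGF-beta and BMP genes tested, 9 fell (39.1%) and 7 rose (30.4%), against 18.8% and 16.7% of all mRNAs. The inhibitory SMADs also diverged, as SMAD7 fell by 1.46 and SMAD6 rose by 1.17.

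Interferon and antigen presentation genes were more often higher. Of 36 interferon-stimulated genes 16 rose (44.4%) and 2 fell (5.56%), with a median log2 fold change of 0.49. IFI6 rose from 1408, 1325 and 1444 to 4452, 3847 and 3616 and IFITM1 from 21.6, 22.0 and 35.8 to 202, 159 and 155, whereas OAS3 and USP18 fell by 0.76 and 0.88. OAS3 no longer passed a test against no change in a fit of all 12 libraries. Of 32 antigen presentation genes only 14 were tested, of which 9 rose (64.3%, against 16.7% of all mRNAs) and none fell. Without members that have further copies or unsteady replicates, 7 of 10 rose. TAP1, TAP2, PSMB8, PSMB9 and HLA-DRA were among those with too few reads under their own symbol to test, so the count covers only part of the machinery. Whether reads of these genes lie on further copies in the count table was not tested, so low expression cannot be read from this. CIITA, the activator of MHC class II genes, rose from 1017, 1030 and 1114 to 2611, 2849 and 2578, and its target CD74, the invariant chain, from 14973, 13099 and 12699 to 34291, 29700 and 28170. The classical HLA genes have further copies in the count table that share their reads, so they are not given.

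Cell cycle genes were lower in large shares. Of 55 DNA replication genes tested, 51 fell (92.7%) and none rose. Of 73 genes of mitosis and cytokinesis 67 fell and none rose, and of 45 genes of homologous recombination and the Fanconi pathway, which repair broken or crosslinked DNA, 32 fell and none rose. Their median log2 fold changes were -1.84, -1.38 and -1.30. The median of the DNA replication list lay at -1.87, -1.85 and -1.78 in the 3 MAPKi libraries relative to the DMSO mean, and between -0.04 and 0.04 in the DMSO libraries.

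POLE, the catalytic subunit of the leading strand polymerase, and CENPK, a protein of the inner kinetochore, are shown with their promoters because both fell strongly and hold a motif known from cell cycle promoters. The windows run from 250 bases before to 50 bases after the RefSeq start site (GRCh38.p14), chr12:132687293-132687592 on the minus strand for POLE and chr5:65563119-65563418 on the minus strand for CENPK. Capitals mark an E2F site in POLE, which starts 18 bases before the start site, and CCAAT boxes in CENPK, 3 in all.
POLE: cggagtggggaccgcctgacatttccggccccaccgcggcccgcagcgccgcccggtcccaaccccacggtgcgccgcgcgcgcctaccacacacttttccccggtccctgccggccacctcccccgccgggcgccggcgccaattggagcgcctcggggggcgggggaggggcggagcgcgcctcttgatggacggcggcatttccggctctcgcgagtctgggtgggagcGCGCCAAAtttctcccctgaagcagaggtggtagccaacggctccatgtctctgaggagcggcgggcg
CENPK: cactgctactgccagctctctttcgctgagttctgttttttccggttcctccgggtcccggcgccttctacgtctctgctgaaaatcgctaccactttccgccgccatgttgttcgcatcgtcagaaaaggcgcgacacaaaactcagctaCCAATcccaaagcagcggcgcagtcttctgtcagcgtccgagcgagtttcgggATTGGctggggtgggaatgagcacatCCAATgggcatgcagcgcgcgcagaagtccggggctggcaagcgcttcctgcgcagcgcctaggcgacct

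Searched on both strands as TTTCCCGC or TTTGGCGC, the E2F site was in the window of 18 of 47 DNA replication genes with a window (38.3%), against 2.31% of the promoters of all 27305 genes in the table, 5.33% of mRNAs that fell and 2.47% of those that rose. A CCAAT box, searched as CCAAT, was in 71.4% of 63 mitosis genes, 84.6% of 52 histone genes and 35.7% of all promoters. Among mRNAs tested the share was 36.8%, and among those that fell 41.4%. The box is not particular to cell cycle lists: other lists ran from 9.09% of 11 laminin windows to 81.8% of 11 one-carbon windows. The counts describe these windows, and binding was not measured.

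POLE fell from 3949, 4291 and 3998 normalized counts to 383, 377 and 437 (log2 fold change -3.35, SE 0.07, adjusted p = 3.5e-10). CENPK fell from 879, 912 and 911 to 168, 149 and 187. Of the factors that load the replicative helicase, CDC6 and CDT1 fell by 2.71 and 2.61 and MCM5, a helicase subunit, by 1.88, while the sliding clamp PCNA fell by 2.17. The 4 replication genes not called were ORC2, ORC4 and ORC5, subunits of the origin recognition complex, and the kinase CDC7, with log2 fold changes from -0.64 to -0.07.

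Regulators of G1 and S phase were more mixed than their targets. Of 20 G1 cyclins, kinases and inhibitors 9 fell and 1 rose, the CDK inhibitor CDKN1A, from 2548, 2476 and 2333 to 4805, 5229 and 5026. CDC25A, a phosphatase that activates CDK2, fell from 1992, 2095 and 1634 to 263, 241 and 273, and SKP2, which targets CDK inhibitors for degradation, by 1.59 on the log2 scale. CDKN1B, the inhibitor p27, had a log2 fold change of 0.55 and CDK4 of -0.10, neither of which was called. Of 17 E2F factors and partners 11 fell: E2F1, an activator, fell from 1453, 1549 and 1376 to 222, 189 and 186, and the repressors E2F7 and E2F8 by 1.75 and 2.47.

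Among mitotic genes, AURKB, the kinase of the chromosomal passenger complex, fell from 3277, 3372 and 3464 to 670, 674 and 733, CDK1 by 1.58 and CCNB1, its cyclin, by 1.54 on the log2 scale. TOP2A and MKI67, common proliferation markers, fell less, by 1.02 and 1.30. CDC25B, FZR1 and MIS12 were not called, with log2 fold changes of -0.07, -0.32 and -0.07. In the repair list RAD54L and EXO1 fell by 2.85 and 2.84 and BRCA1 by 1.56 on the log2 scale.

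Replication-dependent histones changed by a median of -2.24, the lowest of the 55 gene lists, with 53 of 56 tested genes lower and none higher. H4C9 fell from 6138, 6531 and 6778 to 832, 923 and 898, and H3C3 from 11531, 12521 and 12327 to 2050, 2457 and 2311. H3C6 was not called (log2 fold change -0.05). On the scale of length-scaled levels the 62 histone genes made up 6.14%, 6.49% and 6.39% of the mRNA pool with DMSO and 1.48%, 1.69% and 1.62% with MAPKi. The groups did not overlap.

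**Figure D3:**
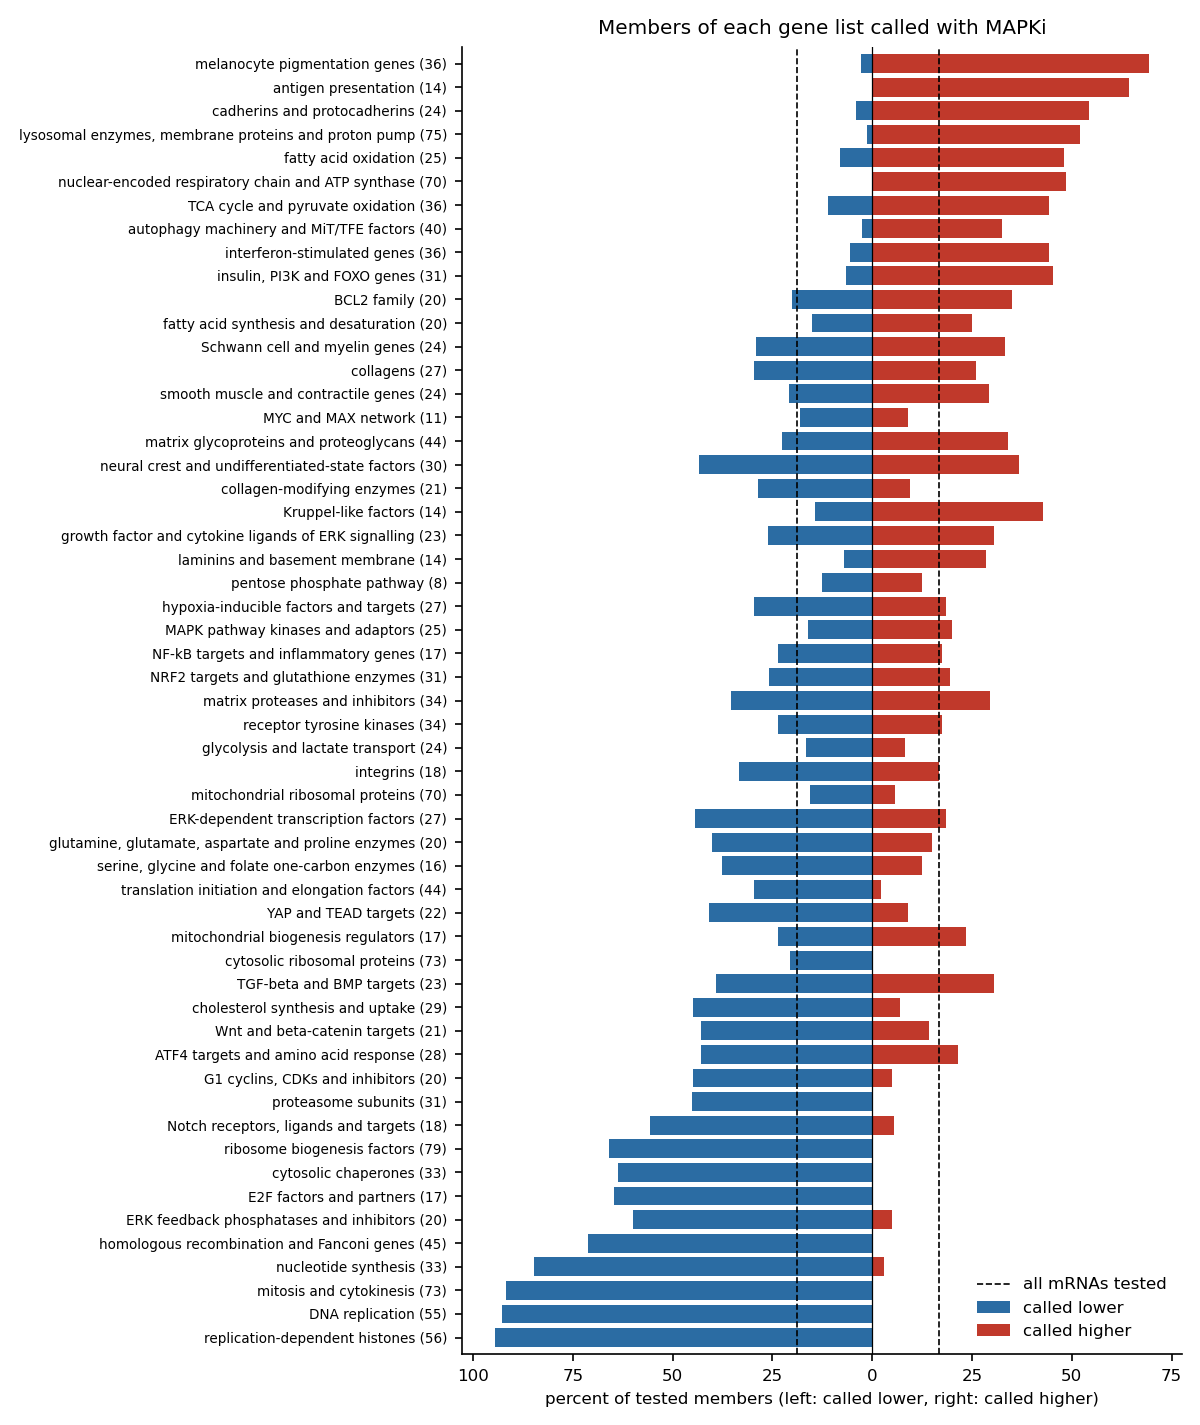
Percent of the tested members of each of 55 gene lists called lower (blue, to the left) or higher (red, to the right) with MAPKi, ordered by median log2 fold change, with the number of tested members in parentheses. Dashed lines mark the shares of all mRNAs tested, 18.8% lower and 16.7% higher; histone, replication and mitosis genes lie at the bottom with 91.8% to 94.6% called lower, and pigmentation genes at the top with 69.4% called higher.

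Members of the BCL2 family, which decide between survival and apoptosis, moved in both directions. Of 20 tested, 7 rose and 4 fell. BMF and BCL2L11 (BIM), activators of apoptosis, rose from 719, 707 and 801 to 10963, 11009 and 10822 and from 630, 591 and 567 to 1792, 1932 and 2020, and HRK, another of that class, by 3.11 on the log2 scale. PMAIP1 (NOXA), which belongs to the same class, fell from 403, 288 and 305 to 50.7, 39.9 and 40.6. Survival factors also diverged: BCL2 fell by 1.79, BCL2A1, a target of MITF, rose by 1.57, and MCL1 overlapped between groups (6060 to 6482 and 6210 to 6276).

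The machinery of protein synthesis was lower to very different degrees. Of 79 ribosome biogenesis factors tested 52 fell and none rose (median log2 fold change -0.96). GNL3, a nucleolar GTPase, fell from 3721, 3913 and 3834 to 916, 906 and 1053 and DKC1, the pseudouridine synthase of the nucleolus, by 1.82, whereas POLR1A, the large subunit of RNA polymerase I, differed little (6503 to 6900 and 6232 to 6382). Of 73 cytosolic ribosomal proteins 15 fell and none rose, with a median of -0.48. The share that fell, 20.5%, is near the 18.8% of all mRNAs. In the test against no change 69 were lower and 1 higher, against 5016 and 4839 of 12595 mRNAs. The groups did not overlap in 70 of the 73, against 80.7% of all mRNAs. RPLP0, a protein of the ribosomal stalk, fell from 47873, 49425 and 48058 to 28229, 30677 and 31635, and RPS6 had a log2 fold change of -0.58.

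Translation factors were lower in 13 of 44 cases (29.5%) and higher in 1 (2.27%), against 18.8% and 16.7% of all mRNAs. The paralogs EIF4EBP1 and EIF4EBP2, which hold back cap-dependent initiation, moved in opposite directions: EIF4EBP1 fell from 5504, 6079 and 5318 to 1540, 1519 and 1651 and EIF4EBP2 rose from 4419, 4400 and 4272 to 8557, 8584 and 8878. Of 33 cytosolic chaperones 21 fell and none rose, with a median of -1.03. HSP90AB1, the constitutive HSP90, fell from 111251, 118067 and 122953 to 40522, 42325 and 42768, and CCT5, a subunit of the tubulin- and actin-folding chaperonin, by 1.44. Of 31 proteasome subunits 14 fell and none rose.

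Among the metabolic lists, nucleotide synthesis had the largest share of lower genes. Of 33 genes 28 fell (84.8%) and 1, the mitochondrial thymidine kinase TK2, rose. RRM2, the ribonucleotide reductase subunit, fell from 9996, 10813 and 9812 to 1369, 1354 and 1297, TYMS, the thymidylate synthase, by 2.22 and CAD, which starts pyrimidine synthesis, by 1.91 on the log2 scale. In one-carbon metabolism 6 of 16 genes fell (37.5%) and 2 rose (12.5%), against 18.8% and 16.7% of all mRNAs. The mitochondrial folate enzymes MTHFD2 and MTHFD1L had log2 fold changes of -2.68 and -2.81, MTHFD2 going from 8980, 8952 and 9251 to 1347, 1483 and 1418.

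Glycolysis changed little as a list and much in its regulatory enzymes. Of 24 genes 4 fell (16.7%) and 2 rose (8.33%), against 18.8% and 16.7% of all mRNAs. The isoforms of the bifunctional PFKFB enzyme, which set the level of an activator of glycolysis, diverged: PFKFB4 fell from 7384, 6930 and 6881 to 1883, 2170 and 2097 and PFKFB3 by 1.07, while PFKFB2 rose from 1684, 1643 and 1768 to 5621, 5712 and 6215. Hexokinase HK2 had a log2 fold change of -0.62 and the glucose transporter SLC2A1 of 0.21, neither of them called. LDHA has further copies in the table and is not given.

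Genes of mitochondrial respiration were more often higher than lower. Of 70 nuclear-encoded subunits of the respiratory chain and ATP synthase 34 rose (48.6%) and none fell, and of 36 genes of the TCA cycle and pyruvate oxidation 16 rose and 4 fell. The median of the respiratory chain list lay at 0.66 in each of the 3 MAPKi libraries, and single members had log2 fold changes from -0.26 to 2.53. ATP5F1B, the catalytic beta subunit of ATP synthase, rose from 43554, 42907 and 45489 to 80235, 78959 and 78731, COX6A1 by 1.24 and UQCRB by 1.36 on the log2 scale. On length-scaled levels, the respiratory chain list went from 2.26%, 2.25% and 2.33% of the mRNA pool to 4.13%, 4.17% and 4.12%.

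The kinases that inhibit pyruvate dehydrogenase split by isoform: PDK4 and PDK1 fell by 2.21 and 1.12, while PDK2 and the opposing phosphatase PDP1 rose by 1.62 and 1.77. Regulators of mitochondrial biogenesis split as well. PPARGC1A, the coactivator PGC-1alpha, rose from 3673, 3393 and 3725 to 10838, 11500 and 11633 and its partner ESRRA by 1.58, whereas the relatives PPARGC1B and PPRC1 fell by 2.18 and 1.10. Of 70 mitochondrial ribosomal proteins 11 fell (15.7%, below the 18.8% of all mRNAs) and 4 rose (5.71%).

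Genes of lipid synthesis moved both ways. Of 20 genes of fatty acid synthesis and desaturation 5 rose and 3 fell, with a median of 0.38. FASN, the fatty acid synthase, fell from 99327, 104785 and 99136 to 44696, 44538 and 44010, and ACLY, which supplies its acetyl-CoA, by 1.34. SREBF1, a transcription factor of lipid synthesis, nevertheless rose from 9897, 8533 and 7880 to 25961, 22195 and 21999. Of 29 cholesterol genes 13 fell and 2 rose, with a log2 fold change of -1.41 for SQLE, the squalene epoxidase. Of 25 genes of fatty acid oxidation 12 rose and 2 fell. CPT1A, which admits fatty acids to mitochondria, rose by 1.38 and DECR1 by 2.24, and ACOX2, a peroxisomal oxidase of bile acid intermediates, fell from 437, 454 and 424 to 22.9, 36.6 and 14.1.

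Amino acid transporters separated within the same response. ATF4 itself, the factor of the amino acid response, fell from 7360, 6426 and 7790 to 4044, 4413 and 4326, and 12 of 28 of its targets and related genes fell while 6 rose. The cystine transporter SLC7A11 and the glutamine transporter SLC1A5 fell by 2.16 and 1.95. SLC7A5 and SLC3A2, which together form the transporter of large neutral amino acids, rose, SLC7A5 from 20689, 18934 and 16203 to 120618, 95894 and 98127. GLUL, the glutamine synthetase, rose by 1.17. 

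Lysosomal genes rose broadly: 39 of 75 rose (52.0%) and 1 fell, with a median of 0.77. The cathepsin CTSF is shown with its promoter because it holds a site of the kind bound by TFEB, the lysosomal regulator, and TSPAN10, a tetraspanin of pigment cells, because it holds a site of the kind bound by MITF. The windows, built as above (GRCh38.p14), are chr11:66568557-66568856 on the minus strand and chr17:81642055-81642354 on the plus strand. Capitals mark the site, which starts 124 bases before the start in CTSF and 80 bases before it in TSPAN10.
CTSF: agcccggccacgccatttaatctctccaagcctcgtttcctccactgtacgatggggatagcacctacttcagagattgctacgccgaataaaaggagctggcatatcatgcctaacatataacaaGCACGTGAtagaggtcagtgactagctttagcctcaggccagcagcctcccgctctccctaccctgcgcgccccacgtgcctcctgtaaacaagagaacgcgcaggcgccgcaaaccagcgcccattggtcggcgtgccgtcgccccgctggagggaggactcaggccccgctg
TSPAN10: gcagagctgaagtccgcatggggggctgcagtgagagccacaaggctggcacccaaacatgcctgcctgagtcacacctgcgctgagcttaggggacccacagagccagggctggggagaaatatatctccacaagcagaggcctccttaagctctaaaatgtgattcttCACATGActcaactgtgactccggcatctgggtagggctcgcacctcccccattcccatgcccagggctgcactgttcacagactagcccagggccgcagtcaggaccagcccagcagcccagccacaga

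The first motif was searched on both strands as TCACGTGA or TCACGTGC and the second, the M-box, as TCATGTG or TCACGTG, so the second includes the first. The first was in 9 of 53 lysosomal windows and in 1.78% of all promoters. The M-box was in 9 of 29 pigmentation windows, 37.7% of the lysosomal windows and 6.68% of all promoters. With only the last 150 bases of the window the shares were 11.3% for the first motif in lysosomal windows, and 13.8% and 28.3% for the M-box in pigmentation and lysosomal windows. All promoters had 1.2% and 4.15% there. Other lists ran from 0.0% to 17.6% of 34 translation factor windows for the M-box, so the pigmentation share lay within their range. Binding was not measured.

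CTSF rose from 1561, 1254 and 1405 to 7618, 6423 and 6482, CTSD from 7469, 6331 and 6432 to 35932, 30156 and 29285, and the sphingomyelinase SMPD1 by 2.35 on the log2 scale. PSAP, the precursor of the saposins, rose from 48432, 43317 and 45297 to 170358, 143229 and 146690 (log2 fold change 1.75, SE 0.07, adjusted p = 1.7e-08). In each of these genes MAPKi replicate 1 was the highest library. LGMN, the protease legumain, was the exception and fell by 1.35, and the membrane protein LAMP1 had a log2 fold change of 0.51 that was not called. Together the lysosomal genes went from 1.18%, 1.06% and 1.09% of the length-scaled mRNA pool to 2.64%, 2.33% and 2.34%.

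Of 40 autophagy genes and MiT/TFE factors 13 rose and 1, ATG101, fell. TP53INP2 and TP53INP1, which act in autophagosome formation, rose most, TP53INP2 from 1274, 1143 and 1208 to 22632, 22084 and 22232. TFEB rose from 190, 195 and 221 to 587, 583 and 566. SQSTM1 has further copies in the table and is not given. Hypoxia factors diverged, as HIF1A fell from 12814, 14356 and 13829 to 6316, 6785 and 6616 and EPAS1 (HIF-2alpha) rose from 1150, 1147 and 1297 to 7376, 7738 and 8112.

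**Figure D4:**
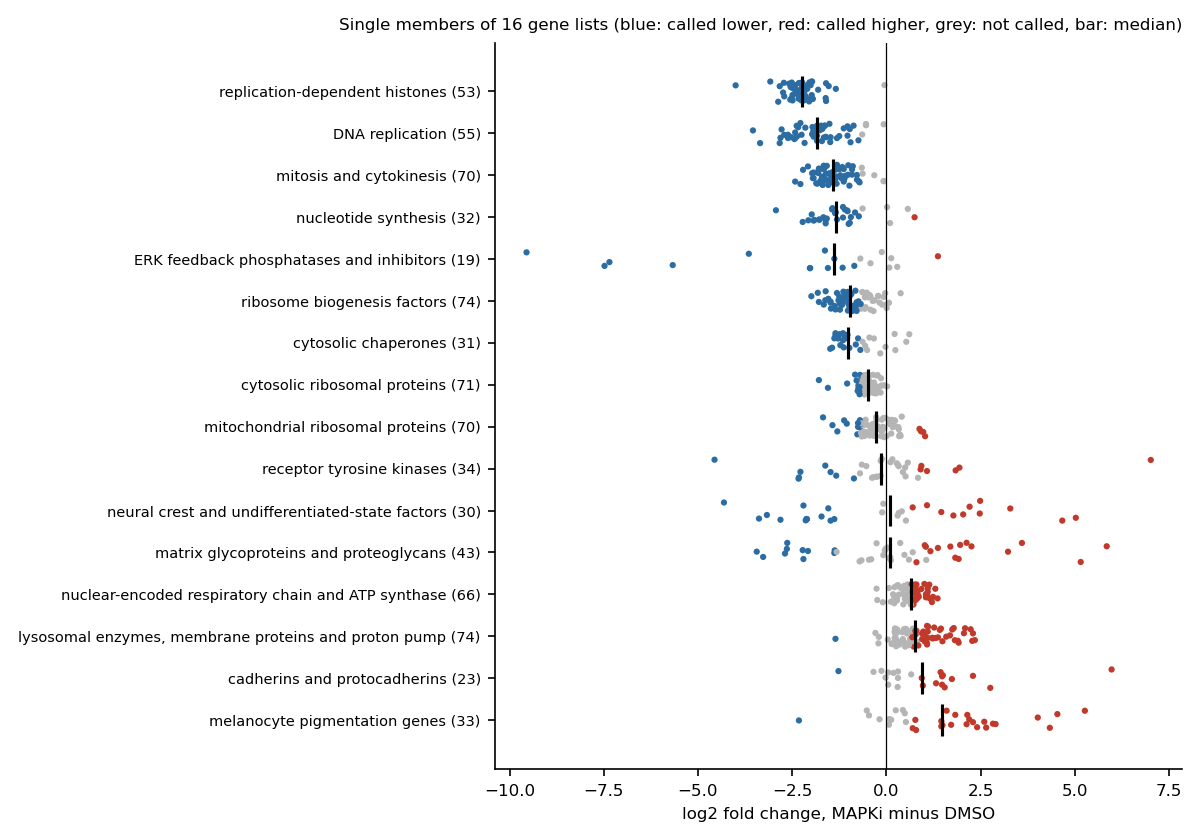
Log2 fold change (horizontal axis, MAPKi minus DMSO) of single members of 16 gene lists, blue for members called lower, red for members called higher and grey for the others, with a black bar at the median and the number of members in parentheses. Members with further copies in the table or unsteady replicates are left out; members of the respiratory chain lie close to their median, while receptors, neural crest factors and matrix glycoproteins spread to both sides.

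Pigment cell genes rose more than any other list by median, 1.54, with 25 of 36 tested genes higher (69.4%) and 1 lower. DCT, which acts in melanin synthesis, rose from 8497, 5714 and 6993 to 319888, 242707 and 253256 normalized counts, a 38.5-fold difference (log2 fold change 5.27, SE 0.17, adjusted p = 3.8e-09). Its length-scaled level went from 164, 109 and 133 to 6750, 5220 and 5420. PMEL, the fibril protein of melanosomes, rose from 1110, 875 and 1055 to 9600, 6364 and 6690, and TSPAN10 from 137, 93.0 and 108 to 2752, 1961 and 2114. The lineage factor MITF rose less, from 13998, 13683 and 13748 to 23950, 22704 and 23815.

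Melanosome proteins and enzymes differed widely in their amounts. TYR, the tyrosinase, had length-scaled levels from 1.44 to 1.71 with DMSO and from 3.75 to 7.68 with MAPKi, and MLANA from 0.88 to 1.31 and from 6.18 to 7.37, both far below DCT. CITED1, a coactivator of this lineage, rose from 585, 555 and 623 to 8329, 10024 and 10313 and the transcription factor IRF4 from 33.4, 23.0 and 48.4 to 868, 794 and 795. LEF1 was the member that fell. The pigmentation list as a whole went from 0.26%, 0.229% and 0.243% of the mRNA pool to 1.69%, 1.41% and 1.44%.

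Neural crest factors separated into groups of opposite direction, with 13 of 30 lower (43.3%) and 11 higher (36.7%), against 18.8% and 16.7% of all mRNAs. SOX9 fell from 19089, 20179 and 20083 to 2020, 1935 and 1734, POU3F2 (BRN2) from 1988, 2132 and 1999 to 102, 93.2 and 112, and the retinoid receptor RXRG had a log2 fold change of -2.81. NGFR, the neurotrophin receptor that marks neural crest cells, rose from 169, 146 and 115 to 4084, 4863 and 5039. SOX4 and SOX2 rose by 3.29 and 2.48. SOX10 had a log2 fold change of 0.52 that was not called.

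Of 24 glial genes 7 fell (29.2%) and 8 rose (33.3%), against 18.8% and 16.7% of all mRNAs. PMP2, FABP7 and S100B had log2 fold changes of -3.06, -2.91 and -2.14. GPNMB, a melanosomal glycoprotein, rose from 20741, 16827 and 19630 to 153175, 125955 and 127757. Kruppel-like factors, of which 6 of 14 rose and 2 fell, included KLF4, with a log2 fold change of -2.46, and KLF9, with 0.94.

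**Figure D5:**
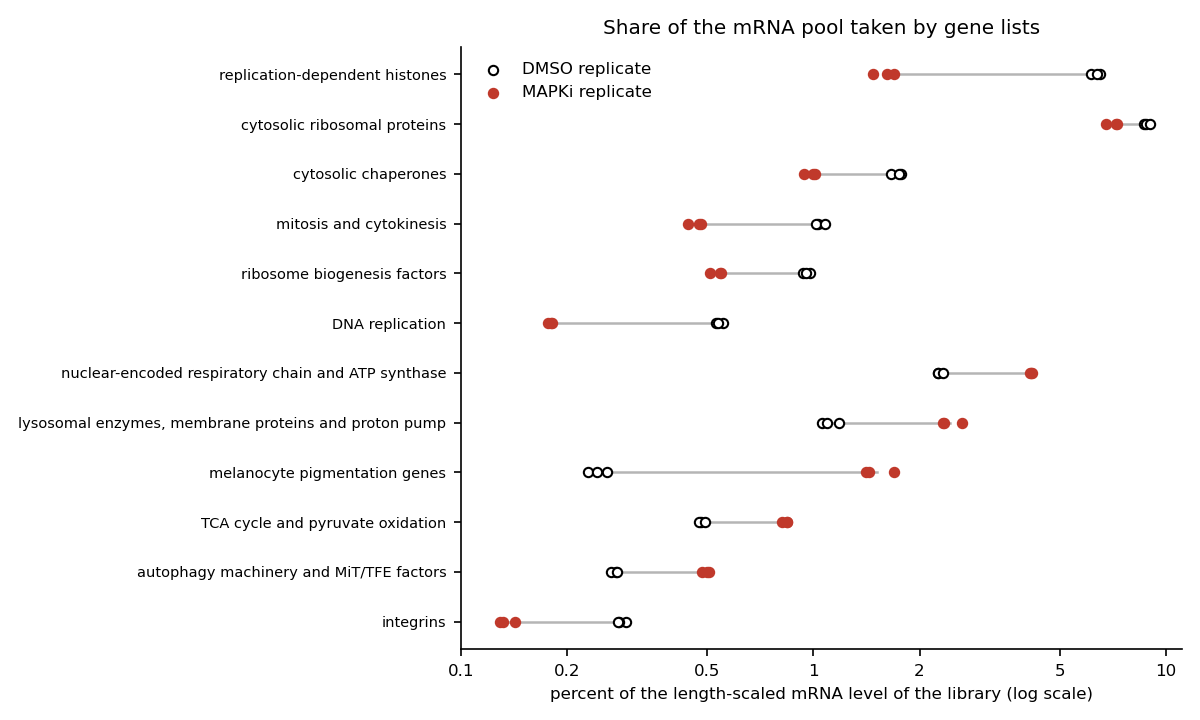
Share of the length-scaled mRNA level (horizontal axis, percent, log scale) taken by 12 gene lists in each library, with open circles for DMSO replicates, red circles for MAPKi replicates and a grey line between the group means. Histones went from 6.34% to 1.60% on average, the respiratory chain from 2.28% to 4.14% and pigmentation genes from 0.244% to 1.51%.

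Collagens and laminins held genes that rose and genes that fell. Of 27 collagens 8 fell (29.6%) and 7 rose (25.9%), against 18.8% and 16.7% of all mRNAs. COL4A1, a chain of basement membrane collagen, fell from 15883, 15908 and 15753 to 8189, 7126 and 7105, while COL4A5, another chain of the same type, rose from 179, 174 and 210 to 1074, 921 and 880. COL5A1 and COL5A2, chains of the same fibrillar collagen, went in opposite directions, with log2 fold changes of -2.69 and 1.55. The laminin chains LAMA5 and LAMB2 rose by 1.98 and 1.73, and LAMA4, LAMB1 and LAMC1 were not called.

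The lysyl oxidases that were tested, enzymes that crosslink collagen, fell: LOXL4 from 29279, 24983 and 27416 to 1091, 983 and 996, a 26.6-fold difference, LOXL3 by 1.86 and LOXL2 by 1.45. Of 21 collagen-modifying enzymes 6 fell (28.6%) and 2 rose (9.52%), against 18.8% and 16.7% of all mRNAs. The integrin ITGB3, which pairs into the vitronectin receptor, fell from 54906, 54475 and 55540 to 3821, 3487 and 3511, and the laminin receptor subunit ITGA6 by 1.90. Integrins as a list went from 0.295%, 0.281% and 0.28% of the length-scaled pool to 0.142%, 0.132% and 0.129%, although by count 6 of 18 fell and 3 rose.

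Among 44 glycoproteins and proteoglycans 15 rose (34.1%, against 16.7% of all mRNAs) and 10 fell (22.7%, against 18.8%). CSPG4, a proteoglycan of melanoma cells, fell from 60422, 59140 and 58654 to 5686, 5432 and 5262, VCAN by 3.27 and TNC, tenascin C, by 1.38. SPP1, osteopontin, rose from 6621, 5659 and 6286 to 34105, 26832 and 27984 and CCN3 by 3.60. CCN3 thus moved against its relatives CCN1 and CCN2. FN1, fibronectin, overlapped between groups (13458 to 16622 and 13184 to 14789).

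Proteases and their inhibitors were divided as well, 12 of 34 lower (35.3%) and 10 higher (29.4%), against 18.8% and 16.7% of all mRNAs. PLAT, the tissue plasminogen activator, fell from 8357, 7920 and 7592 to 285, 284 and 294, and the metalloprotease inhibitor TIMP3 by 1.86. MMP2, gelatinase A, rose from 1300, 1350 and 1264 to 11447, 9680 and 9766. Of 24 cadherins and protocadherins 13 rose and 1 fell, with a median of 0.96. CDH19 rose from 1216, 1195 and 1213 to 3642, 3276 and 3318, while CDH2, N-cadherin, overlapped between groups (7402 to 7916 and 7499 to 8431) and CDH1, E-cadherin, had at most 8 reads per library. Contractile genes included MYLK, the myosin light chain kinase, which rose from 543, 491 and 530 to 7694, 7931 and 8010, and ACTN1, which fell by 2.41.

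Gene families defined by a shared symbol root, without regard to function, gave a further view of the response. Of 228 SLC genes, mostly solute carriers of membranes, 81 rose (35.5%) and 30 fell, and of 164 TMEM genes, named for transmembrane proteins of unknown role, 43 rose and 10 fell. The nuclear pore family NUP had 16 of 21 members lower and none higher. ZNF genes, mostly zinc finger transcription factors, had 24 of 421 members lower (5.7%) and 38 higher (9.03%), and their difference from other mRNAs was not tested. In all, 57 families with at least 20 tested mRNAs were examined, which hold 2759 mRNAs.

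Of 3382 entries not matched to a protein-coding gene, 15.1% fell and 12.9% rose in a fit of all genes. Besides non-coding RNAs and pseudogenes, these entries include further copies of protein-coding genes, and symbols without a match were not left out. The shares are thus not those of non-coding genes alone. The pseudogene NPY6R was counted 35.6, 17 and 21.3 times with DMSO and 852, 679 and 697 times with MAPKi. The long non-coding RNA LOC158435 fell from 192, 221 and 189 to 1.99, 6.65 and 6.19.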

How the data were processed

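The authors trimmed reads with fastp 0.20.1, mapped them to GRCh38.p13 by HISAT2 2.2.1, and obtained exon counts from htseq-count (HTSeq 0.13.5); whether strand was used is not given in the sources used here. The deposited values are raw counts of 44659 genes per library. The labels describe cytoplasmic RNA, the methods total RNA.

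Symbols were matched to RefSeq genes (36524 by symbol, 513 by older symbol, 2540 not matched, 5082 further copies of 2713 genes), and 19376 protein-coding genes were used. The 12595 whose normalized counts averaged 10 or more were fitted in edgeR 4.0.16 (R 4.3.3) with TMM normalization, a quasi-likelihood fit and the group as the only term. Calls needed a Benjamini-Hochberg adjusted p of 0.05 or less from glmTreat with a log2 limit of 0.585, the limits of the study, which used DESeq2. Tests were also run against no change, and over all genes for the entries not matched as protein-coding. Length-scaled levels are counts per kilobase of merged exons (GENCODE v44), scaled to 1000000 over mRNAs. On simulated data, edgeR called 196 of 200 changed genes and 2 others of 12336 tested, and DESeq2 1.42.0 called 191 and 0. The changed genes were well counted, had changes well above the limit in both directions, and all others were unchanged. These numbers therefore do not cover genes near the limit or a response as wide as the one seen here.

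The comparison, the 55 lists (1957 different genes, of which 1684 were tested and 273 had too few reads or no match) and the marker lists were chosen with earlier results of these data known, so lists carry no test of their own. Too few reads under a gene's own symbol need not mean low expression. The receptor DDR1 averaged 0.667 reads, while its further copy DDR1_3 averaged 47.8 normalized counts with DMSO and 548.8 with MAPKi. Named genes are the 15 largest rises and falls among called mRNAs with a mean of at least 100 and no overlap, up to 4 rises and falls per list with a mean of at least 50, key members fixed per list, the 10 largest gains and losses in level, and 5 rises and falls among other genes; not all are in the text. Members named only because they were not called, or moved against their list, were added after their values were seen. Promoter windows came from a RefSeq table (GRCh38.p14), the first listed per gene, with 10385 tested mRNAs matched. Libraries held 31056296 to 39123093 reads; only the spread between replicates was used as error. RefSeq places another gene over part of ATP5F1B, ANGPTL7, CIITA, CYB5R2, ESRRA, ETV4, FGF2, FN1, GAB2, GNL3, H4C9, LOXL3, MAP2K1, MLANA, MTHFD2, PDK2, PFKFB2, PFKFB4, PPARGC1B, PPRC1, RAD54L, SKP2, SOX10, SREBF1, SYTL5, TIMP3, TP53INP1 and TYMS, and antisense genes over others such as CCN2, HIF1A and MYRF, so their counts are less certain.

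Genes with further copies in the table (318 of those tested), or whose replicates in a group differed over 3 times after adding 5, were called unsure (384 in all) and are not given as examples. Alternatives were size factors of DESeq2 in edgeR, DESeq2 itself, no threshold or a threshold of 1, at least 2 reads, a mean of at least 100, all 12 libraries, a replicate block, a GC correction (spline with 5 degrees of freedom), both together, and each library left out; leaving out the unsure genes was added after the data were seen. Python 3.11.15 with numpy 2.4.6, pandas 2.3.3 and matplotlib 3.10.9 was used.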

Additional observations from a re-analysis of the deposited data

How the results depend on the processing

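The numbers of lower and higher mRNAs, 2368 and 2102, stayed within 1.5 times under all alternatives but the fold threshold: without one 5016 were lower and 4839 higher, and with a threshold of 1 they were 1292 and 1017. When each library was left out, from 2247 to 2327 were lower and from 1989 to 2110 higher. DESeq2 called 2038 and 1750, a fit of all 12 libraries 1643 and 1416, and without the 384 unsure genes 2312 and 2056 were called. With the replicate block 2427 and 2175 were called; the deviations of same-numbered libraries correlated at 0.164, 0.0467 and 0.0232, so the numbers are not taken to pair the libraries.

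Of 55 lists, 36 had the same majority of lower or higher calls in all 17 alternatives and 47 the same sign of the median. The majority changed for the MAPK kinase, receptor, ligand, TGF-beta, NF-kB, MYC, glycolysis, pentose phosphate, mitochondrial biogenesis, cholesterol, fatty acid synthesis, hypoxia, NRF2, neural crest, Kruppel-like, contractile, collagen, laminin and glycoprotein lists. Of 428 named genes, 399 kept their direction and their side of an adjusted p of 0.05 in the test against no change throughout. Whether their calls against the fold threshold held is not part of this count. The log2 fold change changed sign in genes near 0: FN1 (-0.08) to 0.03 with the GC correction, with or without the block, and 0.04 without DMSO replicate 3 (from -0.13 to 0.04 over the libraries left out), CDH2 (0.05) to -0.01 without MAPKi replicate 1 (from -0.01 to 0.09), and POLR1A (-0.07) to 0.00 with the GC correction, with or without the block. MCL1 moved to 0.01 with DESeq2's size factors, DESeq2 or 12 libraries, to 0.12 with the GC correction, with or without the block, and to 0.03 and 0.00 without DMSO replicates 2 and 3 (from -0.02 to 0.03). The cause was not tested. Counts are relative, so a change in the total mRNA per cell is not measured.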
